A study of Mus musculus with 24 samples.

Results

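The kinesin motor genes of the mouse array were the 35 genes whose probe name is Kif or Kifc followed by a number and an optional letter. They carried 72 of 41174 gene probes and made up 35 of 28786 named genes. Of these, 34 genes could be tested, among 24784 genes in all: 10 mitotic kinesins, 17 transport kinesins and 7 others. Roles were assigned by textbook function, and Kif2a, a depolymerase of neurons and spindle poles, was placed among the others. Kif2b was left out because its thymus signal stood well above background on 3 of the 24 arrays, under the minimum of 6. Each gene was represented by its brightest probe, which was picked among 65 kept kinesin probes.

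RNA from the thymus of 24 C57BL/6 mice aged 15 weeks was measured on 2-colour arrays, in 4 groups of 6 separate mice. The groups were wild type, p27 knockout (without p27Kip1, the cyclin-dependent kinase inhibitor encoded by Cdkn1b), stathmin knockout (without Stmn1, the gene of a protein that binds tubulin and destabilises microtubules) and double knockout (without both). Each group held 3 females and 3 males, and the labels do not say which mouse was which. Thymus RNA carried Cy5 on every array and a common pool of fibroblast RNA from all the genotypes carried Cy3, so dye and tissue cannot be told apart in a comparison with the pool. Every value below is the log2 ratio of thymus to this pool, or a difference between such ratios. A value of 1 is a 2-fold difference. The labels do not say which parts of the targeted genes were deleted, or in which cells.

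Kinesins are proteins that walk along microtubules, or take them apart, with energy from ATP. Mitotic kinesins build the spindle, move chromosomes and help to divide the cell, and their RNAs accumulate in cycling cells in the later part of the cell cycle. Transport kinesins carry vesicles, organelles and protein complexes, and several of them are best known from neurons. The study asked how p27 and stathmin act on cell proliferation in the animal, and kinesins run on the microtubules that stathmin destabilises.

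The genotype labels were checked on the 2 Stmn1 and 3 Cdkn1b probes. On 1 Stmn1 probe the log2 ratio lay between 2.69 and 3.34 in wild type and between 0.79 and 3.22 in p27 knockout, against -3.65 to -1.87 in stathmin knockout and -3.80 to -2.84 in double knockout. On 1 Cdkn1b probe, wild type lay between 1.37 and 2.19 and stathmin knockout between 1.21 and 2.30, against -0.66 to 0.98 in p27 knockout and -1.41 to 0.97 in double knockout. A second Cdkn1b probe also kept them apart, from -0.21 to 1.44 over wild type and stathmin knockout against -1.03 to -0.25 over p27 and double knockout. On the third Cdkn1b probe all groups overlapped (-0.96 to -0.19 in wild type, -1.27 to -0.63 in p27 knockout, -1.21 to 0.10 in stathmin knockout and -1.18 to 0.18 in double knockout). The other Stmn1 probe read 3.22 to 3.87 in wild type and -0.76 to 4.09 in p27 knockout, which overlaps 1.72 to 2.29 in stathmin knockout and 1.22 to 2.87 in double knockout. A probe outside a deleted part does not check the label. Markers of double-positive thymocytes, the main cell of the thymus, passed in the direction of the thymus for 12 of 12 genes, and 9 of 10 fibroblast markers passed in the direction of the pool. On p27 knockout replicate 6 the median ratio of the thymocyte markers was only 0.43, against 5.05 to 7.45 on the other arrays. This array and p27 knockout replicate 5 were also the dimmest, with a 99th percentile of the Cy5 signal of 19.4 and 50.7 kilounits of scanner intensity, where the brightest array reached 339.8. The main counts that rest on the p27 knockout are therefore given with and without these arrays.

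Mitotic kinesins were higher in wild type thymus than in the fibroblast pool. Of the 10 mitotic members, 9 passed as higher and none as lower (limma, Benjamini-Hochberg adjusted p under 0.05 over all genes tested), and their median log2 ratio was 1.21. Across the tested kinesins, 23 of 34 passed (67.6%), 11 as higher and 12 as lower. Across all genes 57.2% passed, 30.1% as higher and 27.1% as lower, with a median of 0.09. Among the mitotic and transport kinesins that passed, all were higher if mitotic and lower if transport motors, except the transport motor Kif21b, which was higher. In whole thymus, a different number of dividing cells and a different amount of RNA in each cell cannot be told apart.

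Kif15, a motor that supports the bipolar spindle, had the highest mitotic ratio. Its lowest, median and highest values over the 6 wild type arrays were 2.31, 2.92 and 3.74. The mean was 3.05 ± 0.50 (SE), an 8.28-fold excess in the thymus channel (adjusted p = 1.44e-05, limma). Kif11 (Eg5), which slides spindle microtubules apart, ranged from 1.95 to 3.38 with a median of 2.67 and a mean of 2.65 ± 0.29 (adjusted p = 3.37e-08, limma). All 6 arrays of both genes lay far above 0 on the brightest probes. The further Kif11 probes averaged 0.18 and 0.83 in wild type. Kif2c (MCAK), which depolymerises microtubules at kinetochores, ranged from 1.43 to 2.20 with a median of 1.71 (mean 1.77 ± 0.19, 3.42-fold, adjusted p = 1.87e-08, limma).

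Further mitotic members followed with smaller excesses. Kif18a, which damps chromosome movements, lay between 0.97 and 1.91 with a median of 1.33. Kif23 (Mklp1), a component of centralspindlin, lay between 0.96 and 1.60 with a median of 1.40. Kif4, a chromosome-bound motor of the spindle midzone, lay between 0.48 and 1.49 with a median of 1.01. None of the wild type arrays fell below 0 for these motors.

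The lowest ratios among the mitotic members that passed were those of Kifc1 and Kif22. Kifc1, a minus-end-directed motor that focuses spindle poles, lay between 0.21 and 1.15 with a median of 0.74 (mean 0.72 ± 0.19, adjusted p = 0.00224, limma). The accession of the Kifc1 probes belongs to Kifc5b in RefSeq, and these near-identical copies could not be separated. Kif22 (Kid), a motor on chromosome arms, lay between 0.13 and 0.90 with a median of 0.38 (mean 0.48 ± 0.16, adjusted p = 0.0116, limma). Kif20a (Mklp2), which moves the chromosomal passenger complex to the midzone, was the only mitotic member that did not pass. Its wild type values lay on both sides of 0, at -0.41, -0.18 and 0.32 (mean -0.11 ± 0.14, adjusted p = 0.504, limma).

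**Figure D1:**
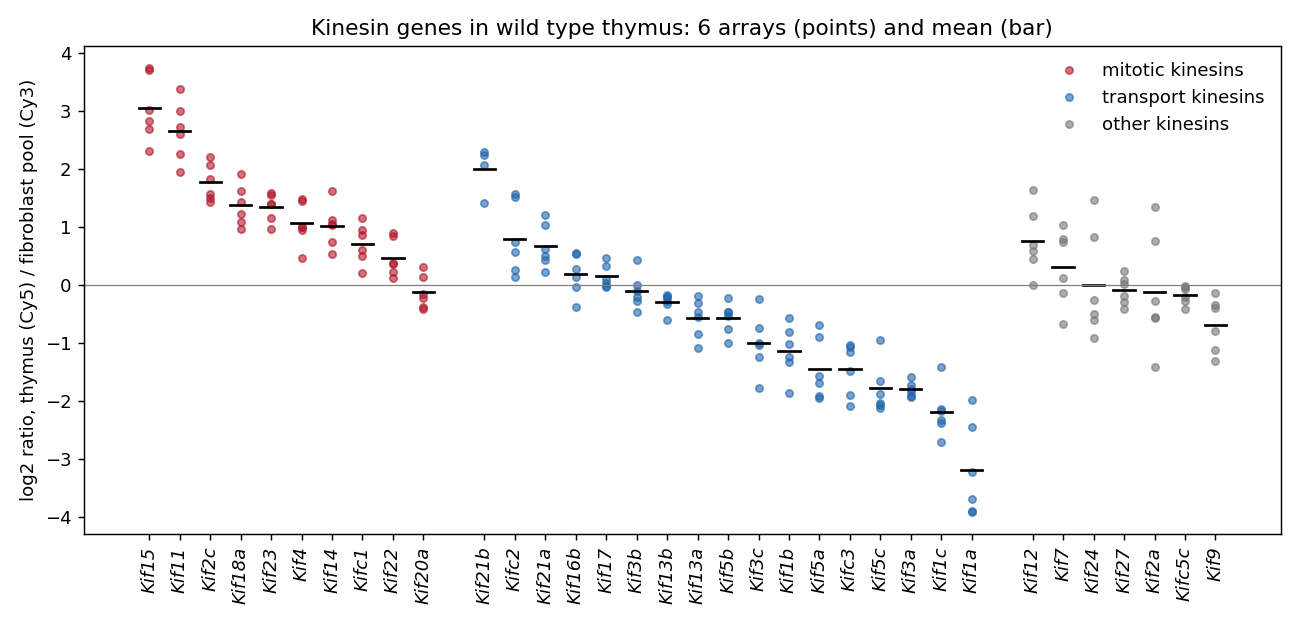
Log2 ratio of thymus to the fibroblast pool for 34 kinesin genes on the 6 wild type arrays (points) with the mean (bar), ordered by role and by mean. Of the 10 mitotic kinesins all but Kif20a have a mean above 0, while most transport kinesins lie below 0, their means running from Kif21b at 2.01 down to Kif1a at -3.19.

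Promoter sequence was examined because many genes of the late cell cycle carry a CHR element (cell cycle genes homology region) and CCAAT boxes close to the start of transcription. RefSeq promoters (build GRCm38.p6) were at hand for 26 of the 34 tested members. The 250 bases before the start were searched on both strands for the CHR core, TTTGAA or TTCAAA, and for the CCAAT box, CCAAT or ATTGG. The CHR core was found in 5 of 9 mitotic members (55.6%), in 1 of 11 transport members (9.1%), and in 18.3% of all 27025 genes with a promoter. A CCAAT box was found in 6 of 9 mitotic members (66.7%), in 3 of 11 transport members (27.3%) and in 37.5% of all genes. The transport member with a CHR core was Kif1a, with TTTGAA 44 bases before the start. Its wild type mean ratio, -3.19, was the lowest of the tested kinesins. The matches are of letters and are not known binding sites.

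The last 120 bases before the start are shown for examples picked by hand. They are 5 mitotic members that passed against the pool and Kif3a, a transport member that was lower in thymus. Kif1a is not shown. Capitals mark matches to either motif, and each run reads 5′ to 3′ in the direction of the gene. The windows are chr19:37376262-37376381 on the plus strand (Kif11), chr7:127042421-127042540 on the minus strand (Kif22), chr9:122950961-122951080 on the plus strand (Kif15), chr4:117178773-117178892 on the minus strand (Kif2c), chr17:33890634-33890753 on the minus strand (Kifc1) and chr11:53567249-53567368 on the plus strand (Kif3a).
Kif11: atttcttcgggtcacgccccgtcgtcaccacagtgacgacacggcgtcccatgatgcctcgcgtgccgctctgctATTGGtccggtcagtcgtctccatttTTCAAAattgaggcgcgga
Kif22: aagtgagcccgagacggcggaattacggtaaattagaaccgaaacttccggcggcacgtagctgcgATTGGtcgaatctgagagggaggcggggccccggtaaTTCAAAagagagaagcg
Kif15: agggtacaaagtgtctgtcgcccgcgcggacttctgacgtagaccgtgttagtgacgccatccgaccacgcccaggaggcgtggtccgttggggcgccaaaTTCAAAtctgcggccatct
Kif2c: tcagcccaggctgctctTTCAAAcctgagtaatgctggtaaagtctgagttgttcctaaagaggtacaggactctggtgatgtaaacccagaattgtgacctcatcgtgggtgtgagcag
Kifc1: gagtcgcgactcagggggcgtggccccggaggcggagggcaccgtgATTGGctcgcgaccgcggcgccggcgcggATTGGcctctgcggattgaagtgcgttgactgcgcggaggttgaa
Kif3a: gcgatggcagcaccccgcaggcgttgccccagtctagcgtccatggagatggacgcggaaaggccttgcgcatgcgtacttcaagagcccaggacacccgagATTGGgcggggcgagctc
In Kif11, Kif15 and Kif22 the CHR core TTCAAA began 19, 19 and 17 bases before the start. Kif11 and Kif22 also held ATTGG 45 and 54 bases before the start. In Kif2c the core lay farther away, at 103 bases. Kifc1 held ATTGG at 45 and 74 bases and no CHR core in the window of 250 bases. Kif3a held ATTGG at 18 bases and no CHR core. No match of one motif touched a match of the other in these windows.

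Transport kinesins went mostly the other way. Of the 17 transport members, 11 passed as lower in wild type thymus than in the pool and 1 as higher. Without p27 knockout replicates 5 and 6 the number that passed as higher was 3. The median of the 17 was -0.57. The lowest was Kif1a, a carrier of synaptic vesicle precursors, at -3.90, -3.45 and -1.97 (lowest, median and highest of 6 arrays). Its mean was -3.19 ± 0.36, a 9.1-fold deficit (adjusted p = 4.87e-08, limma). Kif1c, a motor of Golgi and podosome traffic, lay between -2.69 and -1.41 with a median of -2.25 (mean -2.18 ± 0.21, adjusted p = 3.61e-09, limma). All 6 arrays of these motors were below -1 on the brightest probes. Further probes averaged -1.47 for Kif1a, and -0.65 and -0.44 for Kif1c, in wild type.

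The kinesin-2 and kinesin-1 families, which drive transport in cilia and along axons and in the general cytoplasm, held most of the other low values. Kif3a, the core of heterotrimeric kinesin-2, was the most even member, between -1.92 and -1.58 with a median of -1.82 (mean -1.79 ± 0.10, adjusted p = 2.80e-13, limma). Its partners differed, since Kif3c lay between -1.77 and -0.24 and passed, and Kif3b lay between -0.47 and 0.43 and did not. Of the kinesin-1 heavy chains, Kif5c lay between -2.12 and -0.94 (median -1.95), Kif5a between -1.94 and -0.69 (median -1.62) and the ubiquitous Kif5b between -0.999 and -0.22 (median -0.50). These 3 heavy chains passed as lower. The further Kif5c probe, above background in Cy5 on 3 of 6 wild type arrays, averaged 0.04 in wild type. The further Kif3b probe averaged 0.54. The readings of Kif5c and Kif3b against the pool therefore depend on the probe.

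Other transport members with lower ratios were Kifc3, a minus-end-directed motor of cell junctions (-2.07, -1.31 and -1.04), and Kif1b, which carries mitochondria and vesicles (-1.86, -1.13 and -0.57). Kif13a, an endosome motor, lay between -1.08 and -0.19 with a median of -0.50. Kif13b, whose signal was above background on 4 of 6 wild type arrays, lay between -0.59 and -0.16 with a median of -0.23 and passed with a mean of -0.29 ± 0.11 (adjusted p = 0.0257, limma). With all arrays in the fit, Kif21b was the transport member that passed as higher. Over the 4 wild type arrays whose spots were not marked as outliers it lay at 1.42, 2.16 and 2.30 (mean 2.01 ± 0.46, 4.03-fold, adjusted p = 9.50e-04, limma). Kif21b is a kinesin-4 motor that slows microtubule growth and is known from lymphocytes and neurons. Among the other members, Kif12 (mean 0.76 ± 0.32, adjusted p = 0.0462, limma) passed as higher and Kif9 (mean -0.68 ± 0.22, adjusted p = 0.0104, limma) as lower. The further Kif12 probe averaged -0.42 in wild type, so the direction of Kif12 depends on the probe.

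Several of these genes have further probes, and they did not always read alike. Of 24 members with more than 1 kept probe, 17 had probes of 1 sign against the pool. The rest were Kif12, Kif16b, Kif20a, Kif21a, Kif2a, Kif3b and Kif5c. Both Kif23 probes passed as higher (1.35 and 1.45), as did both Kif4 probes (1.07 and 1.25). The 4 Kif1b probes passed as lower, from -1.94 to -1.11. A further Kif15 probe, dim and not above background in Cy3 on any array, read 0.09 ± 0.17, and the further Kif14 probe read 0.06 ± 0.16. Taken over probes instead of genes, 38 of 65 kinesin probes passed, 18 as higher and 20 as lower, against 55.8% of all probes.

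Partners of the mitotic motors were mostly higher in thymus too, and those of transport motors went both ways. Of 30 spindle and cytokinesis genes, 26 passed as higher in wild type thymus than in the pool and 1 as lower (Anln, the cytokinesis scaffold anillin, -0.68 ± 0.28), with a median of 1.06. Spc24, a part of the kinetochore, read 2.15 ± 0.16, and the mitotic checkpoint kinase gene Bub1b read 2.06 ± 0.25. Of 16 tested light chains and cargo adaptors, 4 passed as higher and 4 as lower. Kifap3, the adaptor that joins the kinesin-2 motors to cargo, was low like Kif3a, at -1.98 ± 0.13, and Klc1, the light chain of kinesin-1, read -2.42 ± 0.21, while the mitochondrial adaptor Trak2 read 1.15 ± 0.22. Of 26 genes of dynein, the minus-end motor, and its activator dynactin, 7 passed as higher and 10 as lower. Ndel1, a dynein regulator, read -2.10 ± 0.12.

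On 3 further kinesins that the array lists under other names, and which are not counted above, the same direction was seen. Cenpe, the kinetochore motor, read 1.07 ± 0.15 (adjusted p = 2.42e-06, limma), the gene listed by its clone name that RefSeq calls Kif18b read 1.52 ± 0.26 (adjusted p = 2.06e-05, limma) and Mphosph1, an older name of Kif20b, read 1.02 ± 0.37 (adjusted p = 0.0204, limma).

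The order of the motor classes held on each array of all genotypes. The median of the mitotic members lay above that of the transport members on 24 of 24 arrays, by 0.31 to 2.28. In wild type the mitotic median ran from 0.75 to 1.54, in stathmin knockout from 0.78 to 1.61 and in double knockout from 1.02 to 1.44. In p27 knockout 5 arrays lay between 0.70 and 1.46 and replicate 6 lay at -0.68, with 1 of 10 mitotic members above 0. The transport median stayed between -0.997 and -0.24 throughout.

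**Figure D2:**
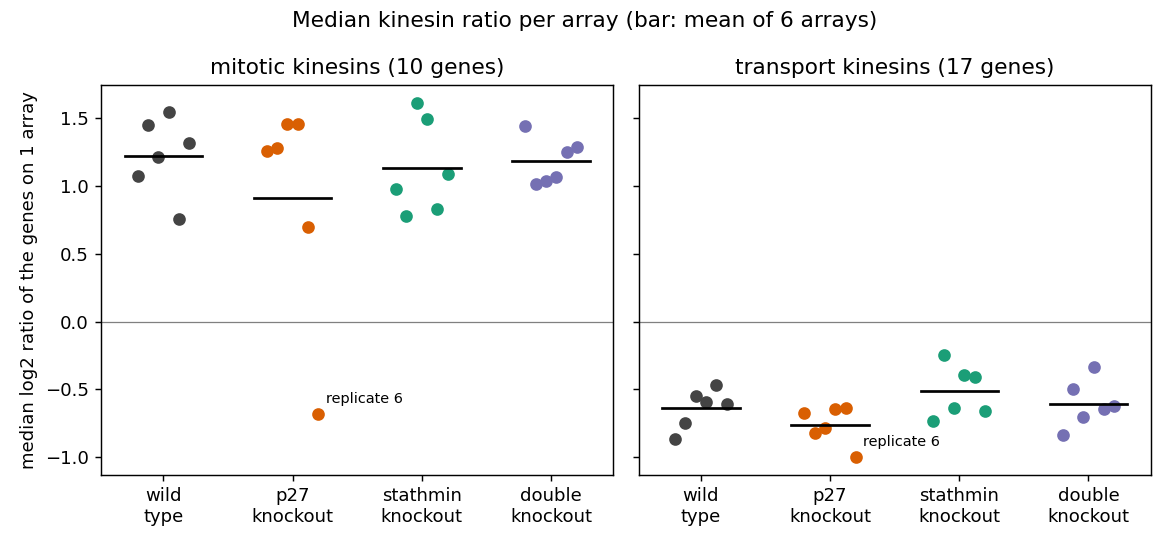
Median log2 ratio of the 10 mitotic (left) and 17 transport kinesins (right) on each of the 24 arrays, by genotype, with the mean of 6 arrays as a bar. The mitotic medians overlap between genotypes apart from p27 knockout replicate 6 at -0.68, the dimmest array.

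Loss of p27 alone was compared with wild type to see whether kinesins respond to the missing cell cycle inhibitor. None of the 34 kinesins passed (limma), against 0.00807% of all genes, and 10 had an unadjusted p under 0.05, a share of 29.4% beside 28.9% of all genes. The 4 members with the lowest p were Kif24, Kif1a, Kif2a and Kif3b, none of them in the mitotic class as assigned here. Kif24, a kinesin of the mother centriole that limits ciliary growth, lay at -0.91, -0.38 and 1.47 in wild type and at 0.60, 1.37 and 3.79 in p27 knockout (difference 1.70 ± 0.46, adjusted p = 0.0809, limma). Kif2a, a microtubule depolymerase of neurons and spindle poles, lay at -1.41, -0.41 and 1.35 in wild type and at 0.06, 1.37 and 5.72 in p27 knockout (2.04 ± 0.64, adjusted p = 0.0809, limma). The ranges of both groups overlapped for both genes.

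Kif1a differed by 1.69 ± 0.50 and Kif3b by -0.97 ± 0.31 (adjusted p = 0.0809 and 0.0815, limma). On the further probes the difference was -0.52 for Kif24, -0.35 and -0.82 for Kif2a, -3e-04 for Kif1a and 0.58 for Kif3b. The direction of Kif24, Kif2a and Kif3b here therefore depends on the probe. Without p27 knockout replicates 5 and 6 the differences on the brightest probes shrank to 1.06 for Kif24, 0.99 for Kif2a, 0.86 for Kif1a and -0.37 for Kif3b. Without these 2 arrays none of the 34 kinesins passed, beside 0.0161% of all genes, and 7 had an unadjusted p under 0.05 (20.6%, beside 13.3% of all genes, limma). Between 3 and 5 kinesins (8.82% to 14.7%) passed when wild type replicate 6 or p27 knockout replicate 1, 2 or 4 was left out, and in these fits 6.6% to 11.3% of all genes passed. Of the mitotic members, the differences ran from -1.27 for Kif15 to 0.24 for Kif22, and the 95% intervals of 7 of 10 lay within 1 log2 unit of 0. Their median difference was -0.27, beside 0.14 over all genes, with 3 of 10 above 0. Without replicates 5 and 6 it was 0.14, beside 0.12 over all genes, with 7 of 10 above 0. Kif14 (0.51 ± 0.23) and Kif22 (0.40 ± 0.18) then had an unadjusted p under 0.05 (limma), and the further Kif14 probe read -0.13. For Kif15 the p27 knockout values had a lowest of -2.97, on replicate 6, and a median of 3.13, and the mean without replicates 5 and 6 was 3.23 ± 0.18 (SD) against 3.05 ± 0.57 (SD) in wild type.

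Loss of stathmin alone, which removes a microtubule destabiliser, left the kinesins without a called change. None of 34 passed against wild type and none had an unadjusted p under 0.05 (limma), beside 0% and 2.75% of all genes. The lowest p belonged to Kif1b, which lay between -1.86 and -0.57 in wild type and between -0.82 and -0.21 in stathmin knockout (difference 0.54 ± 0.32, adjusted p = 1.000, limma). Kifc3, Kif1c and Kif21a followed, with differences of 0.29, 0.37 and 0.52. Without p27 knockout replicates 5 and 6 none of the 34 passed, beside 0.0121% of all genes. Then 1 kinesin (2.94%), Kif1b (0.54 ± 0.23), had an unadjusted p under 0.05 (limma), beside 4.93% of all genes. The mitotic members differed by -0.23 (Kif4) to 0.12 (Kif11). The 95% intervals of 8 of these 10 lay within 1 log2 unit of 0, and the widest, that of Kif15, ran from -1.44 to 1.51. The spread used for Kif15 includes its p27 knockout values (SD 2.53, against 0.57 in wild type and 0.31 in stathmin knockout). Without p27 knockout replicates 5 and 6 the Kif15 difference was 0.03 ± 0.23 (SE).

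Loss of both genes gave the same count. None of 34 kinesins passed in double knockout against wild type and none had an unadjusted p under 0.05 (limma), beside 0.0121% and 4.73% of all genes (0.00403% passed as higher and 0.00807% as lower). Kifc3 (0.42 ± 0.22), Kif9 (0.53 ± 0.31), Kif24 (-0.72 ± 0.46) and Kif1b (0.50 ± 0.32) had the lowest p, each with an adjusted p of 1.000 (limma). Kifc3 lay between -2.07 and -1.04 in wild type and between -1.32 and -0.70 in double knockout, and the groups overlapped. Without p27 knockout replicates 5 and 6 none of the 34 passed, beside 0.194% of all genes. Kif21a (0.58 ± 0.25) and Kif1b (0.50 ± 0.23) then had an unadjusted p under 0.05 (limma), a share of 5.88% beside 8.97% of all genes. The mitotic members differed by -0.17 (Kifc1) to 0.12 (Kif11), and again 8 of 10 intervals lay within 1 log2 unit of 0. Kif17, a motor of cilia and dendrites, was not well above background on any double knockout array, so its level there is only a bound.

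**Figure D3:**
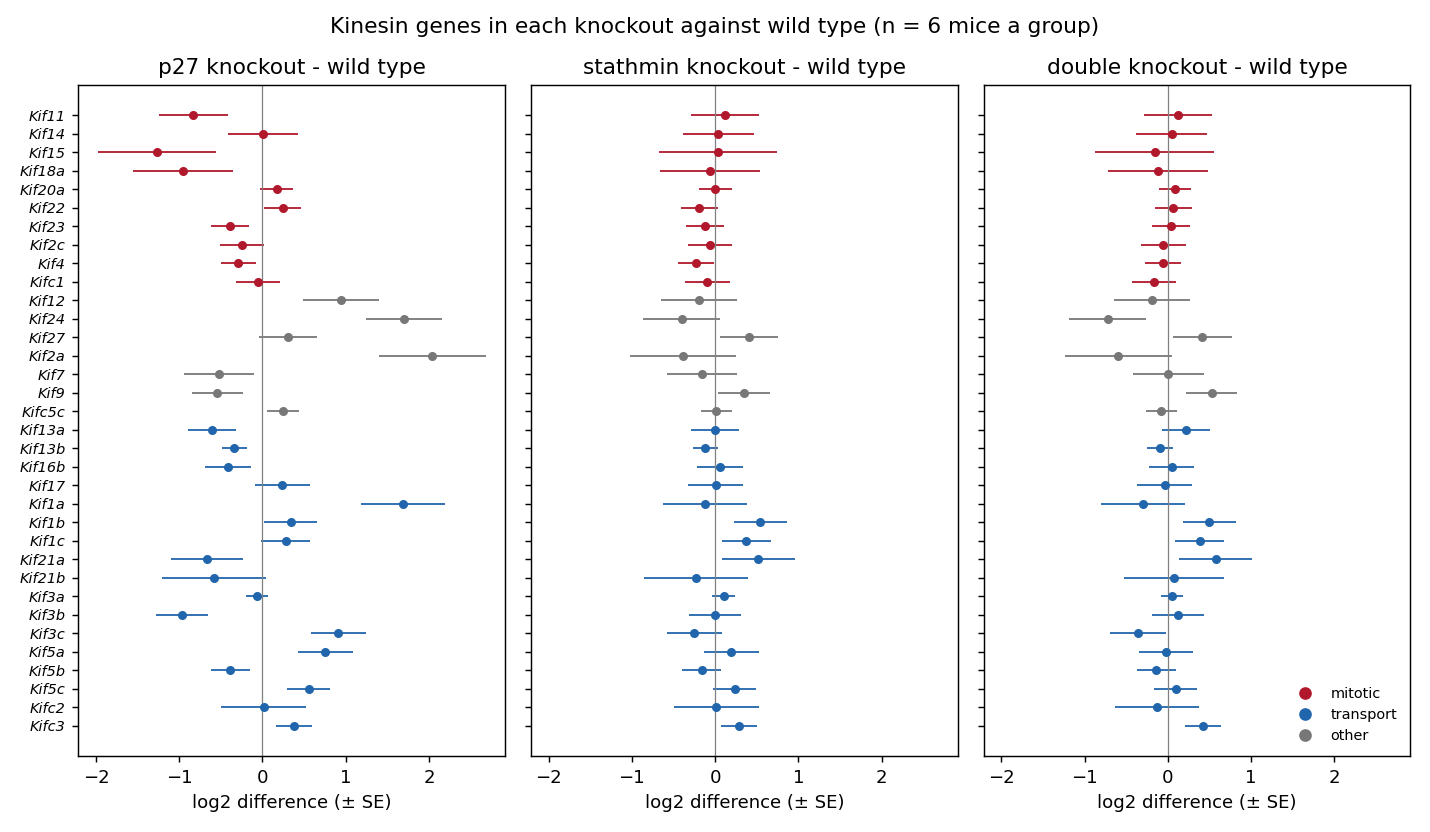
Log2 difference from wild type with its SE for the 34 kinesins in p27 knockout (left), stathmin knockout (middle) and double knockout (right), 6 mice a group. Differences are widest in p27 knockout, from -1.27 (Kif15) to 2.04 (Kif2a), and none of those shown passed the test.

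Double knockout against p27 knockout asks what the loss of stathmin adds where p27 is already missing. Here 8 of 34 kinesins passed, 4 as higher and 4 as lower (limma), which is 23.5% beside 28.8% of all genes (9.7% higher and 19.1% lower). None was in the mitotic class as assigned here, 5 of 17 were transport members and 3 of 7, Kif2a among them, were others. In Kif24 and Kif2a the 6 double knockout values lay wholly below the p27 knockout values, and the 2 genotypes did not overlap for 11.9% of all genes. In the other comparisons between genotypes no kinesin stood apart in this way, beside 0.629% of all genes for p27 knockout against wild type, 0.19% for stathmin knockout and 1.02% for double knockout against wild type, 0.121% for double against stathmin knockout and 2.61% for p27 against stathmin knockout.

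The members that passed as lower in double knockout were Kif24, Kif2a, Kif1a and Kif3c. Kif24 lay at -0.86, -0.71 and -0.58 in double knockout, against 0.60 to 3.79 in p27 knockout (difference -2.42 ± 0.46, adjusted p = 0.00422, limma). Kif2a lay between -0.95 and -0.47 in double knockout, against 0.06 to 5.72 (-2.63 ± 0.64, 6.20-fold, adjusted p = 0.00747, limma). Kif1a lay between -3.98 and -2.96, against -3.00 to 1.17 (-1.99 ± 0.50, adjusted p = 0.00897, limma). Kif3c lay between -1.79 and -0.93, against -1.01 to 1.13 (-1.27 ± 0.33, adjusted p = 0.0102, limma). Each of these 4 was lower on 6 of 6 slides, and the highest p27 knockout values came from replicates 5 and 6.

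The members that passed as higher were Kif3b, Kif9, Kif13a and Kif21a. Kif3b lay between -0.32 and 0.47 in double knockout, against -2.47 to -0.10 (1.09 ± 0.31, adjusted p = 0.0152, limma), and was higher on 5 of 6 slides. Kif9, a motor of cilia and flagella, lay between -0.71 and 0.64, against -1.84 to -0.28 (1.07 ± 0.31, adjusted p = 0.0157, limma), and was higher on 6 of 6 slides. Kif13a lay between -0.70 and 0.10, against -2.33 to -0.27 (0.82 ± 0.29, adjusted p = 0.0364, limma). Kif21a, a kinesin-4 of the cell cortex, lay between 0.47 and 2.17, against -2.45 to 1.22 (1.24 ± 0.44, adjusted p = 0.0375, limma). The groups overlapped for these 4 genes. Kif13a lost its call in 6 of the 24 fits without 1 array (without p27 knockout replicate 4 or 6, or double knockout replicate 1, 2, 4 or 6). Kif21a lost it in 5 (without p27 knockout replicate 5 or 6, or double knockout replicate 2, 4 or 6). The highest double knockout values of Kif9 (0.64 and 0.52) and Kif21a (1.84 and 2.17) came from replicates 2 and 4. On these 2 arrays the median ratio of the ciliated cell markers was 2.36 and 2.14, and that of the skeletal muscle markers was 5.51 and 5.29, against at most -0.01 and 0.34 on the other double knockout arrays. Without replicate 2 or replicate 4 the Kif21a difference in double against p27 knockout was 1.12 or 1.06, and the part of these cells in it was not tested.

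Without p27 knockout replicates 5 and 6, 5 kinesins passed, beside 14.3% of all genes. They were Kif24 (-1.79 ± 0.40), Kif2a (-1.59 ± 0.43), Kif1a (-1.16 ± 0.38), Kif9 (1.04 ± 0.35) and Kif12 (-0.90 ± 0.29), so 4 of the 8 were shared. Kif3c, Kif3b, Kif13a and Kif21a no longer passed. The fibroblast markers moved with this comparison: 6 of 10 passed as lower in double knockout, with a median of -0.81, and none did without the 2 dim arrays. Their median over the list was -0.95 to -3.35 on the p27 knockout arrays and -2.74 to -3.95 on the double knockout arrays, while 3 of 11 markers of neurons and Schwann cells passed as lower and 2 as higher (none and 1 without the 2 dim arrays). Of 7 adipocyte markers 3 passed as higher, with a median of 1.19, and of 5 endothelium markers 2 did, with a median of 1.54. Without the 2 dim arrays the counts were 0 and 1. Of 7 ciliated cell markers 1 passed as higher and 1 as lower, and none without the 2 dim arrays. Of 12 double-positive thymocyte markers none passed with all arrays, and 7 passed as lower in double knockout without p27 knockout replicates 5 and 6 (limma), with a median of -0.97. The part of these cells in the result was not tested.

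**Figure D4:**
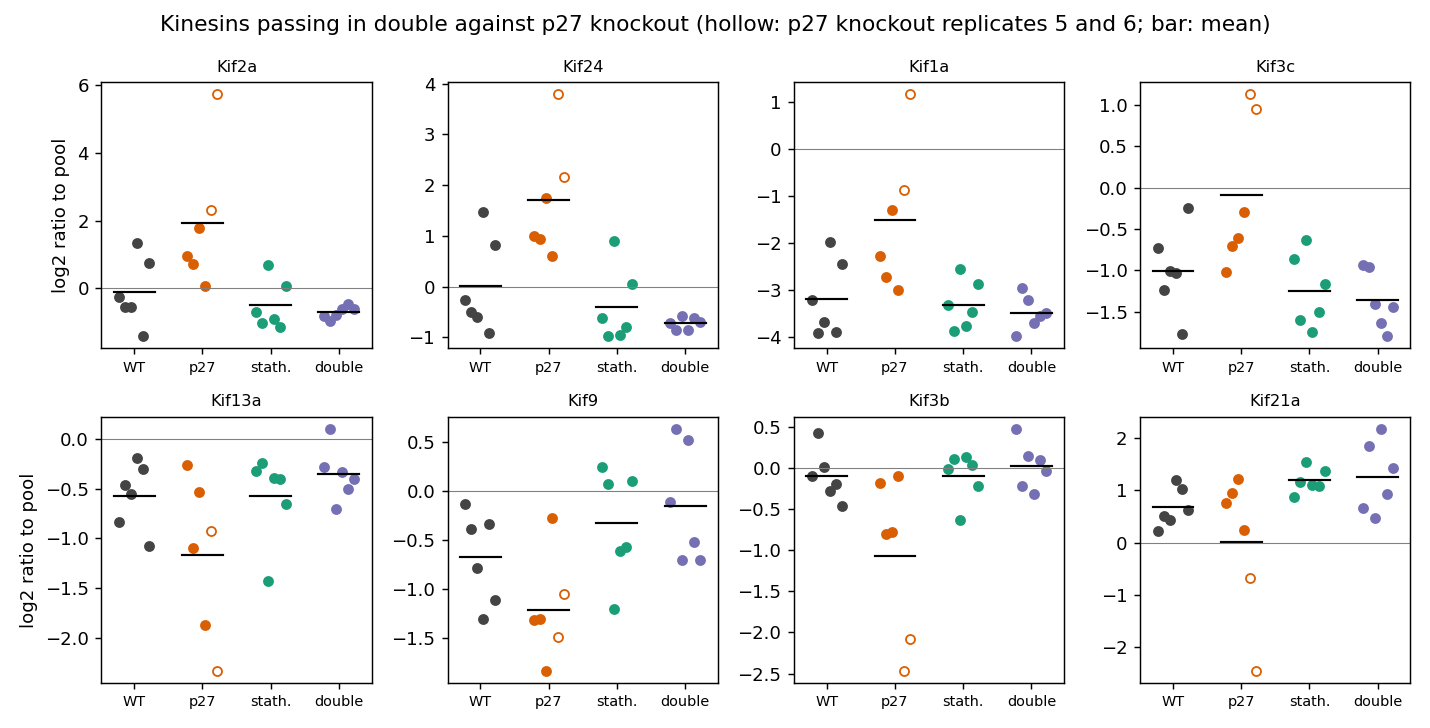
Log2 ratio on each of the 24 arrays for the 8 kinesins that passed in double against p27 knockout, with the mean as a bar and p27 knockout replicates 5 and 6 as hollow points. In the 4 genes of the top row the p27 knockout values lie above the double knockout ones with little or no overlap, and the hollow points are the highest of their group.

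Probes of the same gene gave opposite answers for the leading members. The probe that stood for Kif24 passed as lower in double than in p27 knockout, and the further Kif24 probe passed as higher (0.81 ± 0.24, adjusted p = 0.0161, limma over all probes). That further probe lay between 0.40 and 1.47 in double knockout and between -0.52 and 0.85 in p27 knockout. For Kif2a, the 2 further probes passed as higher, at 1.29 ± 0.36 and 0.61 ± 0.21 (adjusted p = 0.0127 and 0.0316, limma over all probes), against -2.63 on the brightest. The further Kif1a probe read -0.35 ± 0.30 and the further Kif3c probe 0.03 ± 0.22, and neither passed. The further Kif3b probe read -0.66 ± 0.28 and did not pass (adjusted p = 0.0748, limma over all probes), against 1.09 on the brightest. Of the 24 members with more than 1 kept probe, 12 had probes of 1 sign in this comparison. The direction of Kif24 and Kif2a in it therefore depends on the probe. These probe tests use all arrays. Without p27 knockout replicates 5 and 6 the differences, not tested, were 0.53 on the further Kif24 probe, 1.39 and 0.40 on those of Kif2a and 1.62 on that of Kif21a. The further Kif12 probe then read 0.47, where the brightest, which passed without these arrays, read -0.90.

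In wild type and stathmin knockout the highest ratios on the brightest Kif24, Kif2a and Kif1a probes came from the dimmest array of the group, in p27 knockout from 1 of its 2 dimmest, and in double knockout from different arrays. In wild type the highest ratio of each came from replicate 4 (1.47, 1.35 and -1.97), the dimmest wild type array with a Cy5 99th percentile of 56.3 kilounits. In stathmin knockout the highest of each came from replicate 3 (0.90, 0.70 and -2.54), the dimmest of its group at 130.7 kilounits. In p27 knockout it came from replicate 5 for Kif24 and from replicate 6 for Kif2a and Kif1a. In double knockout it came from replicate 3 for Kif24 (-0.58, the dimmest of its group at 200.2 kilounits), from replicate 5 for Kif2a (-0.47, next at 219.6 kilounits) and from replicate 2 for Kif1a (-2.96, at 280.7 kilounits the fifth of 6 from the dimmest). The part of array brightness in these differences was not tested.

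Of the 8 genes, Kif21a was the only one with more than 1 probe whose probes all passed in the same direction. Its further probe lay between 0.47 and 1.61 in double knockout and between -1.23 and 0.16 in p27 knockout, without overlap (1.57 ± 0.28, adjusted p = 0.00349, limma over all probes). It also passed as lower in p27 than in stathmin knockout (-1.14 ± 0.28, adjusted p = 0.0137, limma over all probes). On this probe p27 knockout replicate 6, at 0.16, was the highest of its group, whereas on the brighter probe the same array was the lowest, at -2.45. Over probes, 13 of 65 passed in double against p27 knockout, 8 as higher and 5 as lower, beside 30% of all probes.

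**Figure D5:**
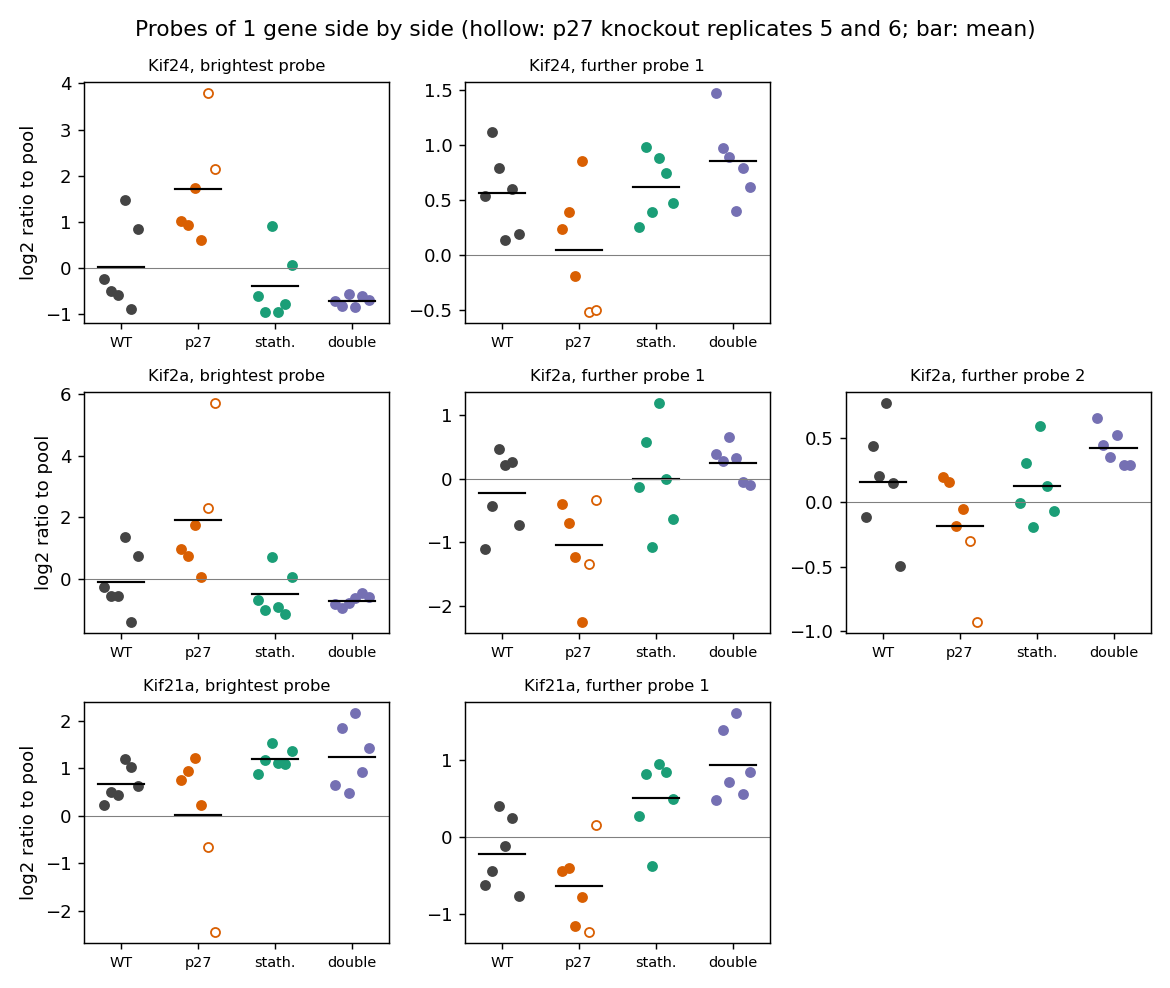
Log2 ratio on each of the 24 arrays for the kept probes of Kif24 (top), Kif2a (middle) and Kif21a (bottom), by genotype, with the mean as a bar and p27 knockout replicates 5 and 6 as hollow points. In Kif24 and Kif2a the mean of the brightest probe is highest in p27 knockout and the means of the further probes are lowest there, while both Kif21a probes have their lowest mean in p27 knockout.

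p27 knockout against stathmin knockout, the comparison of the single mutants, shares its p27 knockout arrays with the one before. In it 6 of 34 kinesins passed (limma), 4 as higher and 2 as lower in p27 knockout, which is 17.6% beside 18.3% of all genes (12.5% higher and 5.78% lower). They were Kif24 (2.10 ± 0.46), Kif2a (2.42 ± 0.64), Kif1a (1.81 ± 0.50), Kif3c (1.16 ± 0.33), Kif3b (-0.97 ± 0.31) and Kif9 (-0.89 ± 0.31), with adjusted p between 0.00987 and 0.0472 (limma). Kif24 lay between -0.97 and 0.90 in stathmin knockout, which overlaps 0.60 to 3.79 in p27 knockout. The means of further probes went the other way for Kif24 (0.04 in p27 and 0.62 in stathmin knockout) and Kif3b (1.12 and 0.59). So did both further Kif2a probes (-0.19 and 0.13, -1.04 and -0.0078). For Kif1a (-1.47 and -1.79) and Kif3c (-0.203 and -0.204) they kept the direction with smaller differences. Without p27 knockout replicates 5 and 6, none of the 34 passed, beside 0.9% of all genes, and 9 had an unadjusted p under 0.05 (26.5%, beside 27.8% of all genes, limma). Leaving out replicate 5 of p27 knockout or replicate 2, 4 or 5 of stathmin knockout left 2 or 3 kinesins (5.88% or 8.82%), and 6.44% to 11.2% of all genes passed in these fits. Kif9 lost its call in 16 of the 24 fits without 1 array.

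Where stathmin was already missing, the further loss of p27 gave no called kinesin. In double against stathmin knockout none of 34 passed and none had an unadjusted p under 0.05 (limma), beside 0.00807% and 1.28% of all genes. Kif22 had the lowest p, between -0.02 and 0.66 in stathmin knockout and between 0.25 and 0.83 in double knockout (0.25 ± 0.22, adjusted p = 1.000, limma). Kif4 (0.17 ± 0.21), Kif13a (0.22 ± 0.29) and Kif24 (-0.32 ± 0.46) followed. Without p27 knockout replicates 5 and 6, again none passed and none had an unadjusted p under 0.05 (limma), beside 0.00403% and 2.9% of all genes.

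The interaction term tests whether the effect of stathmin loss differs with and without p27. None of 34 kinesins passed (limma), beside 0% of all genes, and 6 had an unadjusted p under 0.05, beside 17.8% of all genes. The lowest p were those of Kif24 (-2.02 ± 0.65), Kif1a (-1.87 ± 0.71), Kif2a (-2.25 ± 0.91) and Kif3b (1.09 ± 0.44), each with an adjusted p of 0.264 (limma). These values are from the brightest probes, and further probes of Kif24, Kif2a and Kif3b read the other way in double against p27 knockout. Without p27 knockout replicates 5 and 6, 1 kinesin (2.94%) had an unadjusted p under 0.05 (limma), beside 9.82% of all genes.

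The partners of the kinesins were read beside them in double against p27 knockout. Of 16 light chains and cargo adaptors, 5 passed as lower and 1 as higher, a share of 37.5% beside 28.8% of all genes. They included Hap1, a vesicle adaptor (-1.45 ± 0.32), Klc3, a light chain (-1.25 ± 0.34), and Mapk8ip3, the JNK scaffold JIP3 (-0.86 ± 0.27), with Plekhm2, a lysosome adaptor, as the higher one (0.93 ± 0.27). Without p27 knockout replicates 5 and 6, 3 adaptors passed as lower and 1 as higher, 25% beside 14.3% of all genes. Of 26 dynein and dynactin genes 2 passed, both as higher, and 1 without these arrays. Of 30 spindle and cytokinesis partners 5 passed as higher, among them Hmmr (1.83 ± 0.44) and Ckap5 (1.71 ± 0.54), and without p27 knockout replicates 5 and 6, 1 passed as higher and 1 as lower.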

How the data were processed

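Per the file headers, the authors took the mean and local background intensity of each spot in Cy5 and Cy3 with Agilent Feature Extraction, version 9.1.3.1, and subtracted no background. Per the file headers the same step gave the deposited log10 ratio of Cy5 to Cy3 and the spot flags, used as other values. The authors' deposited table holds log2 values. For its processing, the sources used here give no account. It follows the mean brightness of both channels (correlation at least 0.9999) and not the ratio (at most 0.0069), so it serves as an alternative only.

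Here intensity was corrected by normexp with an offset of 50 and normalized by loess within each array in limma 3.58.1 (R 4.3.3). Outlier spots were left out, probes kept if their Cy5 spot cleared the background flag on 6 or more of the 24 arrays, and the brightest probe taken for each gene. One limma model with genotype as its term, fitted to 24784 genes, gave all tests, and p-values were adjusted by the Benjamini-Hochberg method over all genes. Tested on simulated data for double against p27 knockout on 24784 genes, it recovered 40% of log2 changes of 1 and 87% of changes of 2. The simulation had normally distributed noise, few changed genes and no aberrant array, so these shares need not hold for the real comparison. Members, roles and lists were chosen with earlier results of these data known. Per-array values are given for members that passed, or the 4 lowest p in a comparison where fewer than 4 passed, the 6 highest and 6 lowest against the pool, and 12 reference members. Members keep the array's names, and others were matched to RefSeq by accession. Slides each held 1 array of every genotype, always at the same place, so genotype cannot be told apart from place on the slide. The replicate numbers did not pair the mice (mean correlation of same-numbered arrays 0.03, 15 of 36 pairs over 0.1). Arrays of the same slide were slightly more alike (mean 0.12, 21 of 36 pairs over 0.1) than those of different slides (mean -0.02). For 8 of the 24 arrays the closest array of another genotype was on the same slide. The main model has no slide term, and counts with the slide as a block are given below. The number of arrays limits the precision.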

Additional observations from a re-analysis of the deposited data

Results flagged for a closer look

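In a check of 112 sets of up to 6 arrays (a described member, or the median of the mitotic or transport class, in 1 genotype), 11 sets held an array that stood apart from the rest of its set by more than the 95% limit for a gap of its size. Chance alone flags about 1 set in 20. Of the 11, 6 were p27 knockout replicate 6, the dimmest array. Its log2 ratio was -3.81 for Kif18a, -0.80 for Kif20a, -0.39 for Kif22, -0.87 for Kifc1 and -1.79 for Kif21b, each far below the rest of its group, and the median over its mitotic members was -0.68.

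The others were spread over groups and directions. Kif2c read -0.0166 on p27 knockout replicate 5, below its group, and 2.23 on double knockout replicate 1, above its group. Kif4 read 1.32 on stathmin knockout replicate 4 and Kif5a -0.56 on double knockout replicate 2, both above their groups. Kif13a read -1.43 on stathmin knockout replicate 3, below its group.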

How the results depend on the processing

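The count of kinesins that passed against the pool, 23, stayed between 19 and 25 when 1 array at a time was left out. The counts of 0 for stathmin knockout and double knockout against wild type, double against stathmin knockout and the interaction held without any 1 array (range 0 to 0). With 1 array left out, the count ranged from 0 to 5 for p27 knockout against wild type (up from 0 without wild type replicate 6 or p27 knockout replicate 1, 2 or 4), from 6 to 9 for double against p27 knockout, and from 2 to 8 for p27 against stathmin knockout (2 or 3 once replicate 5 of p27 knockout, or replicate 2, 4 or 5 of stathmin knockout, was dropped).

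Double against p27 knockout gave 8 kinesins, 13 with Agilent's own log ratios, 22 with the authors' deposited table (22 of 22 higher), 5 without p27 knockout replicates 5 and 6, and 5 when only the groups compared were fitted. p27 against stathmin knockout gave 6, 10 with Agilent's log ratios, 24 with the authors' deposited table (24 of 24 lower), 12 with array weights, and 0 both without p27 knockout replicates 5 and 6 and when only the groups compared were fitted. p27 knockout against wild type gave 0, 10 with the authors' deposited table and 4 with array weights. Over all genes, p27 knockout against wild type called 2 genes, 1996 with array weights and 4302 with the table. Double knockout against p27 knockout called 7137, and 3551 without p27 knockout replicates 5 and 6. Where this section gives no share of all genes, a count does not single out the kinesins.

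Of 1670 single-gene values, 69 lost a call and 19 gained one. Kif9 in p27 against stathmin knockout lost its call most often (16 of 24 fits without 1 array). Another 7 changed sign, all in the authors' deposited table, which follows brightness: Kif24 (-7e-04) and Kif1a (-0.0258) in p27 knockout against wild type, Kif1a (0.21) and Kif3c (0.43) in double against p27 knockout, Kif1a (-0.19) and Kif3c (-0.35) in p27 against stathmin knockout, and Kif1a (0.039) in the interaction.

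With the replicate number as a block the counts were 8 for double against p27 knockout, 6 for p27 against stathmin knockout and 22 against the pool. With the slide as a block they were 8, 7 and 23. With either block, no other comparison had a kinesin that passed.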
